A study of Mus musculus with 10 samples.

Results

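The insulin-like growth factor (IGF) family was followed in amputated mouse digit tips through 10 genes. These were the ligands Igf1 and Igf2, the receptors Igf1r and Igf2r, and the binding proteins Igfbp2, Igfbp3, Igfbp4, Igfbp5, Igfbp6 and Igfbp7. They were matched by name in the deposited table of 21729 protein-coding genes, and 55416 gene identifiers were measured in all. A blastema is the mass of proliferating cells that forms at the end of an amputated digit tip, and each of the 10 RNA-seq libraries was made from 6 amputated central digits of the hindlimb. Mutants carried ΔLARM1/2, a deletion of the limb enhancers LARM1 and LARM2 of Lmx1b, a homeobox gene of the dorsal limb, and the study's title concerns digit tip regeneration without Lmx1b. The groups were mutants and wild type 12 days after amputation (12 dpa, days post amputation), when animals were 33 days old, and mutants and wild type at 14 dpa, when they were 35 days old, with 3 mutant and 2 wild type libraries on each day. All animals had a mixed CD1 and C57Bl/6 background, and the labels name no other allele or agent in any group. The labels number replicates without saying which animals gave their digits, so p-values reflect spread among libraries alone, and part of that spread may be technical.

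IGF1 and IGF2 are secreted hormones that act through IGF1R, a tyrosine kinase receptor that feeds the PI3K-AKT-mTOR pathway, while IGF2R takes up IGF2 and routes it to lysosomes. Binding proteins hold the ligands in blood, tissue fluid and matrix, and proteases such as the pappalysins release them by cutting the binding proteins. In the skeleton, IGF signalling is known for driving growth of bone and cartilage, and osteoblasts are a known source of binding proteins.

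Libraries held 69998104 to 101632364 expected counts, and levels are given in CPM, counts relative to the scaled library size, unless TPM, the RSEM transcript measure that corrects for gene length, is named. Lmx1b stood at 0.0278 to 0.336 CPM in the 6 mutant libraries and at 1.69 to 2.94 CPM in the 4 wild type libraries. Mutant 14 dpa replicate 1, so named by its title, has a genotype tag of wild type, but its Lmx1b level of 0.234 CPM lay within the range of the other mutants, and it is treated as mutant. Markers of the tissue itself differed between the genotypes. A list of 5 digit blastema markers summed to 67.1 to 390.1 CPM in mutants and 4394 to 12684 CPM in wild type. Over both days 4 of the 5 fell, beside 22.2% of all genes called lower. Mmp13, a collagenase, did not pass (0.99, adjusted p = 0.166). Lrrc15, which reached 12495 CPM, made up most of that sum in wild type, and the highest level of any other of the 5 was 287 CPM. The 10 fibroblast markers summed to 2813 to 10896 CPM in mutants and 14562 to 22951 CPM in wild type. Keratinocyte markers summed to 66930 to 140645 CPM in mutants and 42190 to 65210 CPM in wild type. In bulk RNA, fewer cells of a type and less RNA per cell cannot be told apart, and the part of these marker differences in the results on the IGF family was not tested.

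In the mutants, 4 of the 10 genes fell over both days, all of them binding proteins, and 0 rose. Igfbp5 fell by 1.83 on the log2 scale, Igfbp7 by 0.76, Igfbp4 by 0.75 and Igfbp3 by 0.47. The ligands and receptors did not pass the test. By edgeR's quasi-likelihood test, 43.7% of all 20216 genes tested changed at an adjusted p under 0.05, 21.5% higher and 22.2% lower, so 4 called of 10 is a share near the background. The median log2 fold change was -0.46 over the 10 genes and -0.61 over the 6 binding proteins, beside 0.02 over all genes tested. In CPM, the mutants lay below every wild type library of their day on both days for the same 4 genes, a pattern that 19.3% of all genes shared, while 37.2% were apart on both days in either direction.

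**Figure D1:**
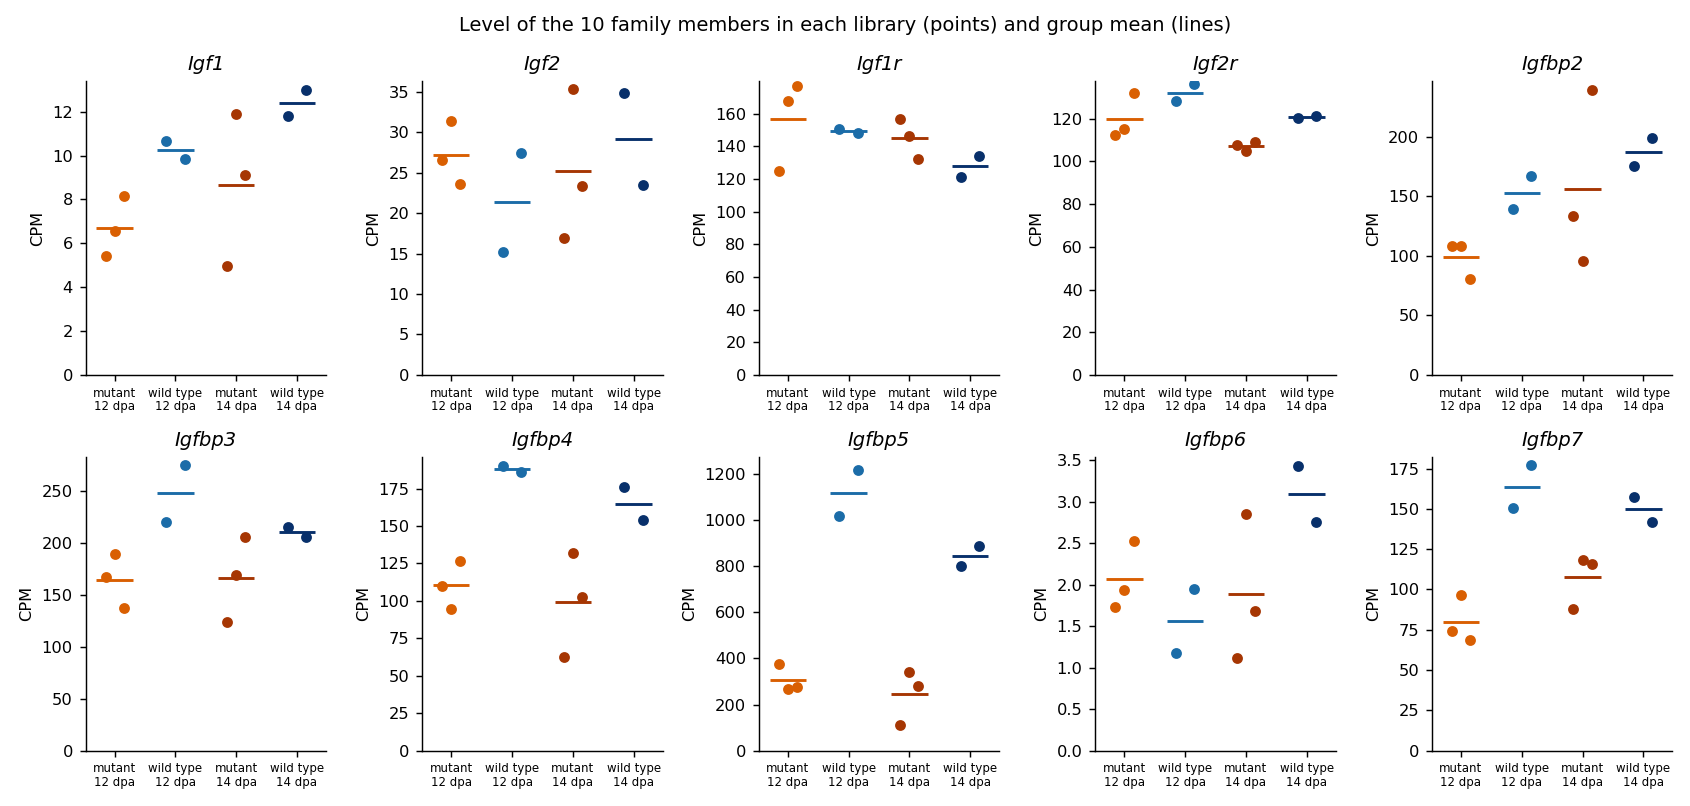
Level of each of the 10 genes in every library, in CPM on axes that start at 0, with points for libraries and lines for group means (3 mutant and 2 wild type libraries a day). The mutant points of Igfbp5 lie between 112 and 375 CPM and those of wild type between 803 and 1220 CPM, while Igf2, Igf1r and Igfbp6 overlap between the genotypes on both days.

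Igf1, the ligand that mediates growth hormone action, was below wild type in most mutant libraries. Its level at 12 dpa was 5.40, 6.58 and 8.17 CPM in mutants, against 10.7 and 9.85 CPM in wild type. Its level at 14 dpa was 4.97, 11.9 and 9.11 CPM in mutants, against 11.8 and 13 CPM in wild type. The mutants lay below both wild type libraries at 12 dpa, and at 14 dpa mutant replicate 2 reached the wild type level. Over both days Igf1 stood at a log2 fold change of -0.57 (SE 0.22, adjusted p = 0.0602), which did not pass the test. It passed without mutant 12 dpa replicate 3 (adjusted p = 0.0494), mutant 14 dpa replicate 1 (0.0413) or mutant 14 dpa replicate 2 (0.0167), in DESeq2 (0.031) and with protein-coding genes alone (0.0436).

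Igf2, a fetal growth factor expressed from the paternal allele, had differences of opposite sign on the 2 days, and neither passed the test. At 12 dpa it had 26.5, 31.4 and 23.5 CPM in mutants, against 15.2 and 27.4 CPM in wild type. At 14 dpa it had 16.9, 35.3 and 23.3 CPM in mutants, against 34.8 and 23.5 CPM in wild type. The genotypes overlapped on both days. The log2 fold change at 12 dpa came to 0.35 (SE 0.35, adjusted p = 0.515), while at 14 dpa it came to -0.21 (SE 0.34, adjusted p = 0.659). Over both days it came to 0.07 (SE 0.24, adjusted p = 0.836).

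The receptors varied least among the 10 genes. Within groups, the SD of log2 CPM was 0.0779 for Igf2r and 0.177 for Igf1r, beside 0.216 to 0.529 for the other 8 genes. Igf1r, the signalling receptor, had 125, 167 and 177 CPM in mutants at 12 dpa, against 151 and 148 CPM in wild type. At 14 dpa Igf1r had 156, 146 and 132 CPM in mutants, against 121 and 134 CPM in wild type. The genotypes overlapped on both days, and the log2 fold change over both days was 0.12 (SE 0.11, adjusted p = 0.382). Igf2r, the clearance receptor, had 112, 115 and 132 CPM in mutants at 12 dpa, against 128 and 136 CPM in wild type. At 14 dpa Igf2r had 108, 105 and 109 CPM in mutants, against 120 and 121 CPM in wild type, and here the groups did not overlap. Its log2 fold change over both days was -0.16 (SE 0.07, adjusted p = 0.113). It passed with protein-coding genes alone (adjusted p = 0.034), and on the TPM scale its direction turned to 0.11.

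Igfbp5, a binding protein that attaches to bone matrix, showed the largest change of the 10 genes. Libraries of 12 dpa held 375, 269 and 275 CPM in mutants, against 1020 and 1220 CPM in wild type. Libraries of 14 dpa held 112, 342 and 282 CPM in mutants, against 803 and 887 CPM in wild type. Every mutant library lay below every wild type library of both days, and mutant 14 dpa replicate 1 was the lowest. Igfbp5 was 0.282-fold of wild type over both days (log2 -1.83, SE 0.27, adjusted p = 0.00112), and the call stood on each day. At 12 dpa the value was -1.87 (SE 0.38, adjusted p = 0.0145), while at 14 dpa it was -1.79 (SE 0.38, adjusted p = 0.00988). The call at 12 dpa ended without wild type 12 dpa replicate 2 (adjusted p = 0.0907) and that at 14 dpa without wild type 14 dpa replicate 2 (0.0504).

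Igfbp7, a secreted protein of vessel walls and matrix that binds IGFs with low affinity, changed with less spread. It had 74.3, 96.5 and 68.9 CPM in mutants at 12 dpa, against 151 and 177 CPM in wild type. At 14 dpa it had 88.2, 118 and 116 CPM in mutants, against 157 and 142 CPM in wild type. The genotypes did not overlap in CPM on either day. Igfbp7 stood at a log2 fold change of -0.76 (SE 0.12, adjusted p = 0.00148) over both days. At 12 dpa the value was -1.03 (SE 0.18, adjusted p = 0.0059), while at 14 dpa it was -0.48 (SE 0.18, adjusted p = 0.0621). The call at 12 dpa ended without wild type 12 dpa replicate 2 (adjusted p = 0.058). At 14 dpa Igfbp7 passed without mutant 12 dpa replicate 2 (0.0381), in DESeq2 (0.0446), with protein-coding genes alone (0.0465) and with no filter on low counts (0.0474). Polr2b lies on the opposite strand and overlaps the Igfbp7 gene; it rose over both days (0.38, SE 0.10, adjusted p = 0.0116), and its counts were 59.4% of those of Igfbp7.

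Igfbp4, which inhibits IGF action until it is cut by pappalysin, fell to a like extent. Levels at 12 dpa were 110, 94.5 and 127 CPM in mutants and 190 and 186 CPM in wild type. Levels at 14 dpa were 62.9, 132 and 102 CPM in mutants and 176 and 154 CPM in wild type. No mutant library reached a wild type library of its day, and mutant 14 dpa replicate 1 was again the lowest. Igfbp4 stood at a log2 fold change of -0.75 (SE 0.18, adjusted p = 0.00901) over both days, and neither -0.77 (SE 0.26, adjusted p = 0.0676) at 12 dpa nor -0.74 (SE 0.26, adjusted p = 0.0517) at 14 dpa passed. At 12 dpa it passed without mutant 14 dpa replicate 1 (adjusted p = 0.011) or 2 (0.0357) and in DESeq2 (0.0251). At 14 dpa it passed without mutant 14 dpa replicate 2 (0.0138), in DESeq2 (0.0201), with other scaling factors (0.0471) and with protein-coding genes alone (0.0403).

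Igfbp3, the main IGF carrier of blood, had the smallest of the 4 falls. It stood at 167, 189 and 137 CPM in mutants at 12 dpa, against 220 and 275 CPM in wild type. By 14 dpa Igfbp3 had 124, 169 and 205 CPM in mutants, against 216 and 206 CPM in wild type. The groups did not overlap, though mutant replicate 3 at 14 dpa came close to wild type replicate 2. The log2 fold change over both days was -0.47 (SE 0.15, adjusted p = 0.0291). At 12 dpa the value was -0.59 (SE 0.21, adjusted p = 0.0809), while at 14 dpa it was -0.34 (SE 0.21, adjusted p = 0.23). The call over both days ended without wild type 12 dpa replicate 2 (adjusted p = 0.115), mutant 12 dpa replicate 3 (0.0542), wild type 14 dpa replicate 1 (0.0828) or wild type 14 dpa replicate 2 (0.0517). At 12 dpa Igfbp3 passed without mutant 14 dpa replicate 1 (0.0357) and in DESeq2 (0.0479).

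Igfbp2 and Igfbp6 did not pass the test. Igfbp2, a binding protein of the fetus and of bone-forming cells, had 108, 108 and 80.2 CPM in mutants at 12 dpa, against 139 and 167 CPM in wild type. At 14 dpa Igfbp2 had 133, 95.7 and 239 CPM in mutants, against 176 and 199 CPM in wild type. Mutants lay below wild type at 12 dpa, and at 14 dpa mutant replicate 3 was the highest of all libraries. Over both days Igfbp2 stood at a log2 fold change of -0.45 (SE 0.23, adjusted p = 0.146), and at 14 dpa it was at -0.26 (SE 0.33, adjusted p = 0.56). Without mutant 14 dpa replicate 3 Igfbp2 passed, at -0.67 (adjusted p = 0.00802) over both days and -0.71 (0.0437) at 14 dpa. Without mutant 14 dpa replicate 2 it stood at -0.32 (adjusted p = 0.183) over both days and -0.00815 (0.985) at 14 dpa. Igfbp6, which prefers IGF2, stood at 1.12 to 2.85 CPM in mutants and 1.17 to 3.43 CPM in wild type. Its log2 fold change at 12 dpa was 0.41 (SE 0.40, adjusted p = 0.508), while that at 14 dpa was -0.71 (SE 0.39, adjusted p = 0.179). The value at 14 dpa passed without mutant 14 dpa replicate 2 (-1.14, adjusted p = 0.0368), and without mutant 14 dpa replicate 1 it was -0.44 (adjusted p = 0.385).

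**Figure D2:**
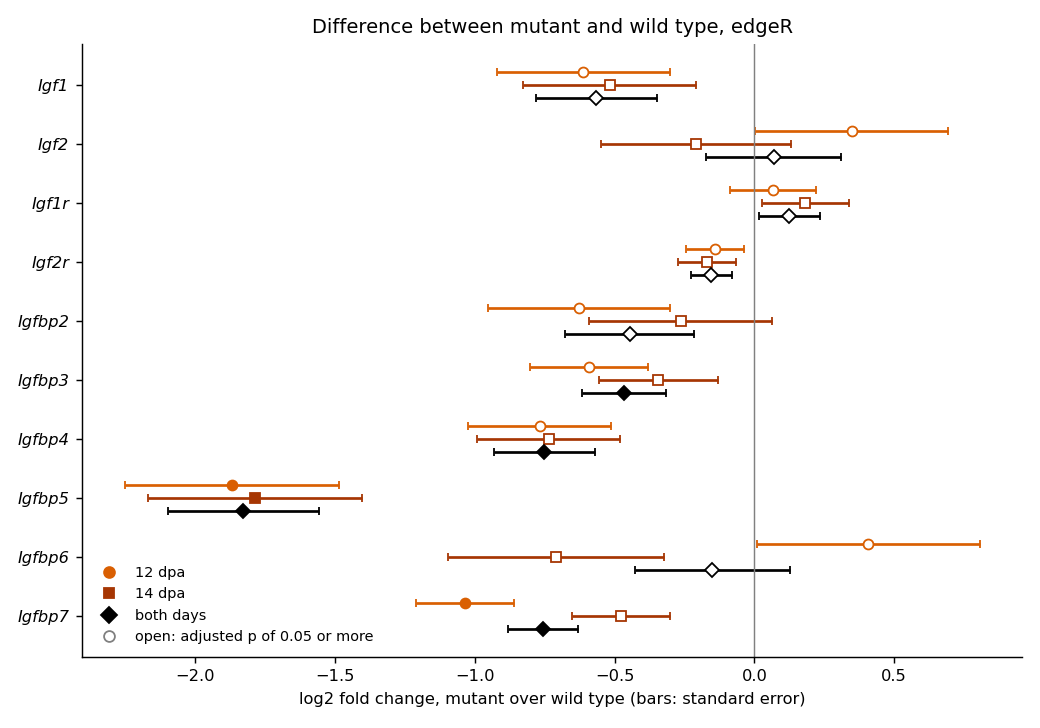
Log2 fold change of mutant over wild type for each gene at 12 dpa (circles), at 14 dpa (squares) and over both days (diamonds), with bars of 1 standard error and filled symbols for an adjusted p under 0.05. Igfbp5 lies lowest on all of them, near -1.8, and the symbols of Igf2 and Igfbp6 stand on opposite sides of 0 on the 2 days.

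Counted by day, 2 of the 10 genes (Igfbp5 and Igfbp7) fell at 12 dpa, where 16.5% of all genes were called, 7.18% higher and 9.34% lower. At 14 dpa 1 of 10 (Igfbp5) fell, where 33.3% were called, 16.1% higher and 17.2% lower. The genotypes did not overlap in CPM for 6 of the 10 genes at 12 dpa, against 51.7% of all genes, and for 5 of 10 at 14 dpa, against 62.4%. Called genes of the 10 at 12 dpa numbered 0 without wild type 12 dpa replicate 2 and 4 without mutant 14 dpa replicate 1. At 14 dpa they numbered 0 without wild type 14 dpa replicate 2 and 3 without mutant 14 dpa replicate 2. They numbered 2 if mutant 12 dpa replicate 2 was left out, or if mutant 14 dpa replicate 3 was.

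The genotype difference itself was compared between the days, and so was 14 dpa with 12 dpa within each genotype. For the difference between days, edgeR called 0 of the 10 genes and 0% of all genes, with 1763 of all genes at an unadjusted p under 0.05 and 48 called by DESeq2. Igfbp7 had the smallest p among the 10 (0.56, SE 0.25, unadjusted p = 0.052, adjusted p = 0.577), followed by Igfbp6 (-1.12, SE 0.56, unadjusted p = 0.0739, adjusted p = 0.591). Between 14 and 12 dpa in mutants, 0 of the 10 genes and 0.0346% of all genes were called, 0.0148% higher and 0.0198% lower (3803 at an unadjusted p under 0.05 and 1483 by DESeq2). The smallest p-values were those of Igfbp7 (0.43, SE 0.16, unadjusted p = 0.0237, adjusted p = 0.198) and Igfbp2 (0.66, SE 0.30, unadjusted p = 0.0537, adjusted p = 0.275). In wild type 0 of the 10 genes and 0% of all genes were called (1654 at an unadjusted p under 0.05 and 52 by DESeq2), with Igfbp6 the nearest (0.99, SE 0.43, unadjusted p = 0.0472, adjusted p = 0.606). At an unadjusted p under 0.05 stood 0 of the 10 genes for the difference between days, 1 in mutants and 1 in wild type, and DESeq2 called 0 of the 10 in each of these 3 comparisons.

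Per length, binding protein transcripts outnumbered ligand transcripts in every library. Igfbp5, Igfbp7 and Igfbp2 led in wild type at 12 dpa, at 149, 142 and 119 TPM, and their ranges overlapped with those of their neighbours. In mutants at 12 dpa the order was Igfbp2 (97.3 TPM), Igfbp7 (86.3), Igfbp3 (72.4), Igfbp4 (51.6) and Igfbp5 (50.0), and among these 5 only the step between Igfbp3 and Igfbp4 exceeded the spread between libraries. At 14 dpa Igfbp5 again stood behind Igfbp2, Igfbp7, Igfbp3 and Igfbp4 in mutants, at 29.9 TPM, while in wild type, at 88.4 TPM, it stood behind Igfbp2 and Igfbp7, whose ranges overlapped. Igf1r and Igf2r averaged 8.86 to 14.4 TPM in mutants and 7.64 to 11.8 TPM in wild type. Igf2 averaged 9.61 and 8.16 TPM in mutants and 6.01 and 7.89 TPM in wild type at 12 and 14 dpa, and Igf1 and Igfbp6 averaged at most 2.27 TPM in every group.

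The summed TPM of the 6 binding proteins was 360 ± 26.2 in mutants (SD, n = 3) and 571 ± 115 in wild type (SD, n = 2) at 12 dpa. At 14 dpa it was 322 ± 71.0 in mutants (SD, n = 3) and 417 ± 85.8 in wild type (SD, n = 2), where the ranges overlapped. Ligand TPM summed to 10.9 ± 1.33 in mutants and 7.98 ± 2.79 in wild type at 12 dpa. At 14 dpa ligands summed to 9.36 ± 4.19 TPM in mutants and 9.24 ± 0.481 TPM in wild type. The ratio of binding protein to ligand TPM averaged 33.2 in mutants and 73.5 in wild type at 12 dpa, with no overlap, and 38.2 in mutants and 45.4 in wild type at 14 dpa, with overlap. Igfbp5 made up 14.0% of binding protein TPM in mutants and 26.1% in wild type at 12 dpa, and 9.15% in mutants and 21.1% in wild type at 14 dpa. Over all libraries this share ran from 5.59% to 16.4% in mutants and from 20.3% to 26.4% in wild type. The share of Igfbp3 was higher in mutants, from 16.6% to 21.7%, than in wild type, from 13.7% to 16.1%. Its TPM was not, at means of 63.6 in mutants and 73.9 in wild type over both days. Shares of 1 sum depend on each other. The mean share of Igfbp2 was also higher, 31.1% in mutants and 24.4% in wild type, with overlap. These sums and shares are descriptions, with no test.

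**Figure D3:**
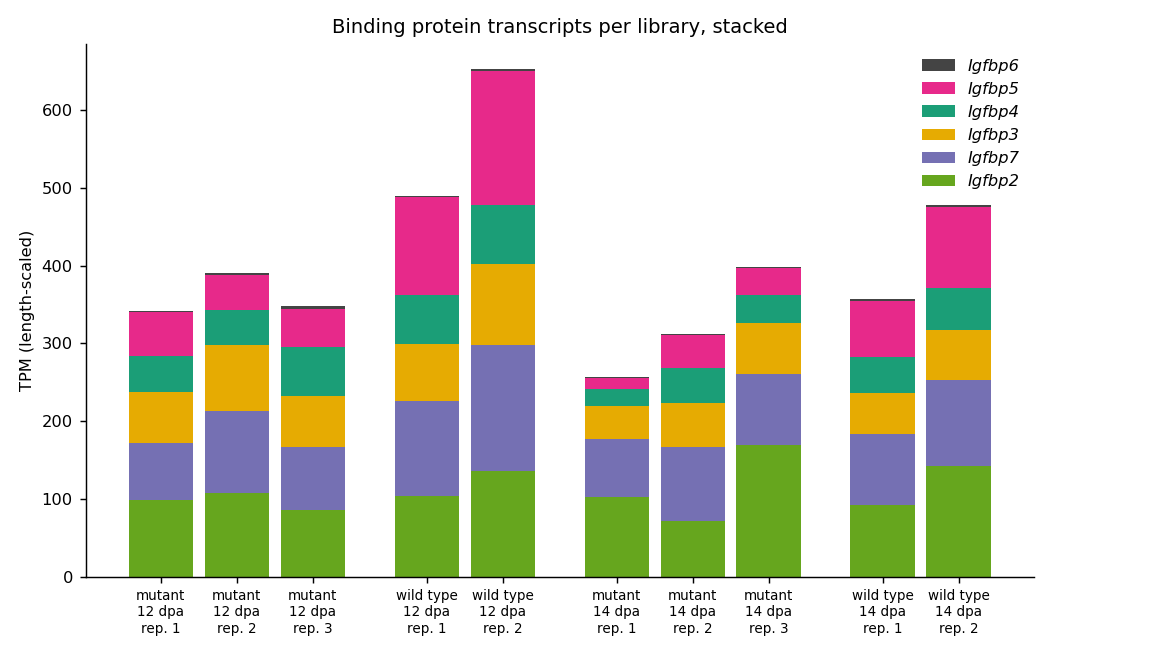
Stacked TPM of the 6 binding proteins in each library, with bars for mutant and wild type replicates at 12 dpa and then at 14 dpa. The Igfbp5 segment is 14.3 to 56.1 TPM tall in mutants and 72.3 to 172 TPM in wild type, and total heights of the genotypes overlap at 14 dpa but not at 12 dpa.

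The TPM scale changes part of this picture. On log2(TPM + 1), the median of all genes in mutants against wild type was 0.14, with 71.8% of calls higher, beside a median of 0.02 and 4354 higher of 8843 calls for the counts. On that scale, tested with limma, Igfbp5 stood at -1.59 (adjusted p = 0.00174) and Igfbp7 at -0.46 (0.0295), while Igfbp4 at -0.51 (0.0523) and Igfbp3 at -0.20 (0.346) did not pass. With limma on log2(TPM + 0.1) Igfbp4 did pass, so its loss depended on the constant added. Igfbp5 was the only gene of these 4 whose TPM ranges were apart on both days. Protein-coding genes held 90.9% to 93.6% of all counts in mutant libraries and 81.5% to 91.0% in wild type libraries, and the part of this in the TPM values was not tested.

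The windows before the starts of the 4 genes called lower over both days are shown. Each line gives the 250 bases before the annotated start, from RefSeq on build GRCm38.p6, read along the gene's strand from 5′ to 3′. Capitals mark the TATA box hexamer TATAAA, its variant form TATATA and its other variant form TATTTA, the GC box hexamer GGGCGG, and the homeodomain core TAATTA, all searched on both strands and with no overlap between them in these windows. The windows lie at chr11:7213924-7214173 on the minus strand for Igfbp3, chr11:99040994-99041243 on the plus strand for Igfbp4, chr1:72874866-72875115 on the minus strand for Igfbp5 and chr5:77408046-77408295 on the minus strand for Igfbp7.
Igfbp3: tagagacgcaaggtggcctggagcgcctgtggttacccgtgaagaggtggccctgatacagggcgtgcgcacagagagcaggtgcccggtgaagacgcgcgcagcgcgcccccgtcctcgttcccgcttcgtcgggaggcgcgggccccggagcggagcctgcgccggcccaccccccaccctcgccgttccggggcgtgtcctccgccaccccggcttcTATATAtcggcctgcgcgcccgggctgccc
Igfbp4: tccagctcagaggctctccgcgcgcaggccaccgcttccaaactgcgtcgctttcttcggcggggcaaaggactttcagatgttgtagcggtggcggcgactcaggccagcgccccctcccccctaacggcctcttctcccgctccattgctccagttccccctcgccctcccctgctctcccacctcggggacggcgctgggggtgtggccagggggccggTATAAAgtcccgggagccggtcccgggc
Igfbp5: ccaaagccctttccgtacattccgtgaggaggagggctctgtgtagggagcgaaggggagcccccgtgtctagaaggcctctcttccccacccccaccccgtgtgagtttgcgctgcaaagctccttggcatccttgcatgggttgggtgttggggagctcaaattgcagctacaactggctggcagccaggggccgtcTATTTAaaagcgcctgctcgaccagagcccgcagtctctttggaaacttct
Igfbp7: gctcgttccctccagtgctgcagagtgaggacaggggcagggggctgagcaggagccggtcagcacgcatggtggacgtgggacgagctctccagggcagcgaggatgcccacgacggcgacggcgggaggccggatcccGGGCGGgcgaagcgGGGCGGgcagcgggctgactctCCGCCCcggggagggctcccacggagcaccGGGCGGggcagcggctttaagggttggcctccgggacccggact

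A TATA-type hexamer stood at position -30 of Igfbp3 (TATATA), -28 of Igfbp4 (TATAAA) and -51 of Igfbp5 (TATTTA), counted from -1 at the base before the start. The -51 holds for the RefSeq start alone. GENCODE places the start of Igfbp5 at 72874884, inside the window, so the hexamer lies closer to that start. Of 32817 windows of this length, 12.4% held TATAAA, 5.25% TATATA and 12.7% TATTTA, and in 3.03% such a hexamer began on the gene's strand between -35 and -21. Igfbp7 held none of these and 4 copies of GGGCGG, at -110, -96, -44 and, on the other strand, -74; 32.7% of all windows held at least 1 copy. TAATTA was in none of these 4 windows and in 4.85% of all windows. The windows of Igfbp3, Igfbp4 and Igfbp7 held 32, 22 and 26 CpG dinucleotides and that of Igfbp5 held 10, beside a median of 6. On chromosome 1, Igfbp2 (72824503 to 72852474, plus strand) and Igfbp5 (72857932 to 72874884, minus strand) are neighbours in the GENCODE annotation of GRCm38, with their ends 5458 bases apart, and Igfbp5 fell while Igfbp2 did not pass.

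Profiles over the 10 libraries were compared by Pearson's r of log2(CPM + 1) among 12701 genes; they share genotype, day, library and depth, so r is a description. The 2 genes most like Igfbp5 were Dok1 (r = 0.990), an adaptor of tyrosine kinase signalling, and Amot (0.990), an angiostatin-binding junction protein. Igfbp4 was closest to the secreted matrix proteins Olfml3 (0.993) and Ccdc80 (0.992), and Igfbp7 to Glrb (0.972) and Itgbl1 (0.960). Igfbp3 was closest to the basement membrane collagen Col18a1 (0.920) and Tril (0.919), and Igf1 to the prostaglandin receptor Ptgfr (0.954) and the myelin protein Pmp22 (0.952). The receptors were closest to other genes, Igf2r to Dock5 (0.978) and Nt5dc3 (0.963), and Igf1r to Golim4 (0.922) and Ccdc97 (0.918). Lower values were found for Igfbp2 with Pcca (0.899) and Eif2s1 (0.892), for Igfbp6 with Atp2a3 (0.880) and Cadm3 (0.878), and for Igf2 with Wdr60 (0.826) and Igfbp6 (0.787). Among the 10 genes, Igfbp4 and Igfbp5 were the most alike (0.949), followed by Igfbp3 and Igfbp5 (0.858).

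The fibroblast marker sum of each library was set beside the 4 fallen binding proteins, and within the mutants their orders matched in part. Mutant 14 dpa replicate 1 had the lowest sum, 2813 CPM, and also the lowest Igfbp3, Igfbp4 and Igfbp5, but the lowest Igfbp7, 68.9 CPM, was in mutant 12 dpa replicate 3, at a sum of 8738 CPM. Mutant 14 dpa replicate 2 had the highest sum, 10896 CPM, and the highest Igfbp4 and Igfbp7, while Igfbp5 was highest in mutant 12 dpa replicate 1, at a sum of 6444 CPM, and Igfbp3 in mutant 14 dpa replicate 3, at 5721 CPM. Of the 10 fibroblast markers, 7 fell over both days and 3 did not pass (median -1.11). Among all genes tested, 22.2% were called lower and 21.5% higher over both days, the background for this and the marker counts that follow. Col1a1, Col1a2 and Col3a1 made up most of the fibroblast sum, at up to 12251, 6259 and 4098 CPM. The highest level of any other of the 10 was 436 CPM. Mutant 14 dpa replicate 1 was also lowest in summed blood endothelial (38.9 CPM), pericyte and smooth muscle (397), osteoblast (19.2) and digit blastema markers (67.1). It was highest in keratinocyte markers (140645 CPM), while chondrocyte and macrophage markers were lowest in other libraries. The 8 blood endothelial markers all fell (median -1.81; 38.9 to 73.0 CPM summed in mutants and 190 to 235 CPM in wild type), and 7 of 8 pericyte and smooth muscle markers fell (median -1.53; 397 to 598 CPM in mutants and 655 to 842 CPM in wild type). Of the osteoblast markers 5 of 7 fell (19.2 to 129 CPM in mutants and 204 to 426 CPM in wild type), of the chondrocyte markers 4 of 6 (197 to 297 CPM in mutants and 301 to 437 CPM in wild type), and of the macrophage markers 4 of 8 (32.9 to 106 CPM in mutants and 61.5 to 80.8 CPM in wild type). Over all libraries Sox9 stood at 150 to 261 CPM and made up most of the chondrocyte sum in mutants. Cspg4 (199 to 385 CPM) and Notch3 (119 to 159 CPM) together made up most of the pericyte and smooth muscle sum in mutants. Keratinocyte markers rose for 8 of 9 (median 0.65). No marker on these lists was at 0 in any library, though Bglap and Col2a1 went down to 0.0130 CPM, near the floor. The part of the markers in the results was not tested.

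**Figure D4:**
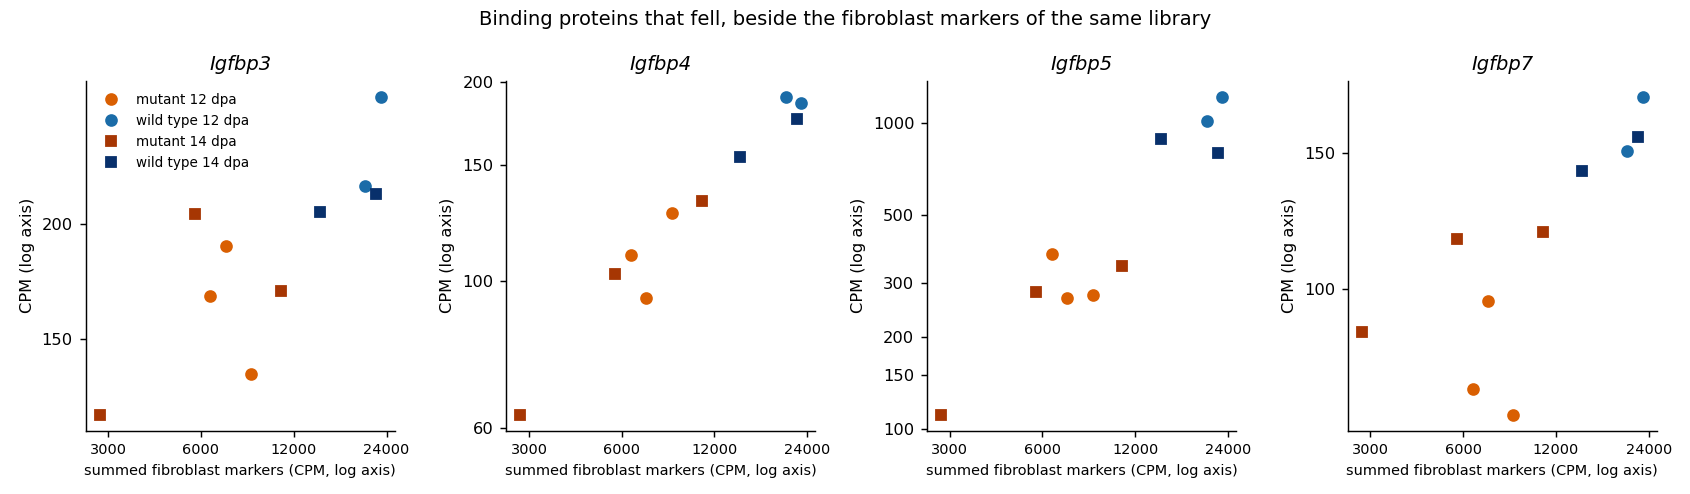
CPM of Igfbp3, Igfbp4, Igfbp5 and Igfbp7 in each library against the summed CPM of 10 fibroblast markers, both on log axes, with circles for 12 dpa and squares for 14 dpa. Mutants lie at 2813 to 10896 CPM of markers and wild type at 14562 to 22951 CPM, with no overlap, and within the mutants Igfbp4 and Igfbp7 are highest in the library with the highest sum, while Igfbp3 and Igfbp5 are highest in other libraries.

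Beyond the 10 genes, the wider pathway held changes in both directions. Of 48 listed genes 45 were tested, and over both days 13 rose, 13 fell and 19 did not pass (median 0.03). So 26 of 45 were called, beside 43.7% of all genes, 21.5% higher and 22.2% lower. At 12 dpa 4 rose and 6 fell, beside 7.18% of all genes called higher and 9.34% lower. At 14 dpa 11 rose and 10 fell, beside 16.1% called higher and 17.2% lower. The count over both days was 17 without wild type 14 dpa replicate 1, where 6769 of all genes were called, beside 8843 with every library kept. Igfbp1, Igfbpl1 and Irs4 were too low to be tested. Igfals, the acid-labile subunit that carries IGF complexes in blood, and the insulin receptors Insr and Insrr did not pass.

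Among 7 proteases of binding proteins and their inhibitors, 4 fell, 1 rose and 2 did not pass (all genes: 22.2% lower, 21.5% higher). Pappa2, the pappalysin that cuts IGFBP3 and IGFBP5, had 1.68, 1.73 and 2.82 CPM in mutants at 12 dpa, against 7.56 and 11.04 CPM in wild type. At 14 dpa Pappa2 had 0.664, 1.78 and 1.14 CPM in mutants, against 6.97 and 8.20 CPM in wild type. The genotypes were apart on both days (log2 -2.41, SE 0.27, adjusted p = 0.000272 over both days). Adam28, a metalloproteinase whose human form can cut IGFBP3, rose, at 1.31 ± 0.629 CPM in mutants (SD, n = 6) and 0.259 ± 0.122 CPM in wild type (SD, n = 4), a log2 fold change of 2.39 (SE 0.44, adjusted p = 0.0025). Stc1, a stanniocalcin that inhibits pappalysin, fell (-0.72, SE 0.19, adjusted p = 0.0128), and its call ended without wild type 12 dpa replicate 2 (0.0593) and on log2(TPM + 1) (0.201).

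Igf2 mRNA-binding proteins bind transcripts of Igf2 and other genes. Of their 3 genes, 2 rose and 1 did not pass (all genes: 21.5% higher, 22.2% lower). Igf2bp2 had 10.7, 12.6 and 14.5 CPM in mutants at 12 dpa, against 2.21 and 1.32 CPM in wild type. At 14 dpa Igf2bp2 had 5.09, 5.77 and 4.39 CPM in mutants, against 1.56 and 1.16 CPM in wild type. It was the gene with the smallest p of the list (2.37, SE 0.20, adjusted p = 6.11e-05), and the genotypes were apart on both days. Igf2bp1 rose as well (1.25, SE 0.36, adjusted p = 0.0212), but not without wild type 14 dpa replicate 1 (0.0746) or 2 (0.0675).

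Among 8 tested receptor substrates and adaptors, 3 fell, 2 rose and 3 did not pass (all genes: 22.2% lower, 21.5% higher). Grb10, an imprinted adaptor that dampens signalling of the insulin and IGF receptors, had 24.2, 21.0 and 26.7 CPM in mutants at 12 dpa, against 93.2 and 104 CPM in wild type. At 14 dpa Grb10 had 11.02, 33.2 and 22.9 CPM in mutants, against 81.8 and 74.4 CPM in wild type, with no overlap (-1.92, SE 0.25, adjusted p = 0.000714 over both days). Its relative Grb14 fell by 2.33 (SE 0.32, adjusted p = 0.00065). Irs1, the main docking protein of the receptors, stood at 20.4 to 46.3 CPM in mutants and 55.8 to 92.4 CPM in wild type (-1.26, SE 0.18, adjusted p = 0.000936).

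Of 17 genes of the PI3K-AKT-mTOR pathway, 8 rose, 1 fell and 8 did not pass (median 0.34), beside 21.5% of all genes higher and 22.2% lower. Akt2, a kinase of insulin signalling, had 103 to 110 CPM in mutants and 76.8 to 86.8 CPM in wild type (0.39, SE 0.06, adjusted p = 0.00152). Foxo4, a transcription factor that AKT inhibits, rose by 0.50 (SE 0.11, adjusted p = 0.00526). Over both days 8 of 9 keratinocyte markers rose and 7 of 10 fibroblast markers fell. The part of these marker changes in the pathway counts was not tested.

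Of 7 imprinted growth genes, 5 fell, 0 rose and 2 did not pass (all genes: 22.2% lower, 21.5% higher). Dlk1, 1 of the 5, was near the floor, at means of 0.0290 CPM in mutants and 0.152 CPM in wild type. It was called on neither single day (adjusted p = 0.172 at 12 dpa and 0.117 at 14 dpa). Mest, a hydrolase-like gene expressed in embryonic mesoderm and also on the list of blastema markers, had 5.49, 3.27 and 5.15 CPM in mutants at 12 dpa, against 53.3 and 53.5 CPM in wild type. At 14 dpa Mest had 2.62, 8.35 and 6.22 CPM in mutants, against 39.4 and 25.4 CPM in wild type (-3.01, SE 0.30, adjusted p = 0.00026 over both days). Plagl1, a zinc finger activator of imprinted genes, fell by 0.95 (SE 0.13, adjusted p = 0.000566), with 3.62 to 6.22 CPM in mutants and 8.43 to 10.98 CPM in wild type. Peg3, a zinc finger gene expressed from the paternal allele, fell by 0.64 (SE 0.19, adjusted p = 0.0239). The Peg3 call ended without wild type 12 dpa replicate 2 (0.117) or replicate 1 of wild type 14 dpa (0.0984), without mutant 12 dpa replicate 2 (0.0511) and on log2(TPM + 1) (0.325). H19, the noncoding neighbour of Igf2, did not pass (0.39, SE 0.45, adjusted p = 0.514).

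**Figure D5:**
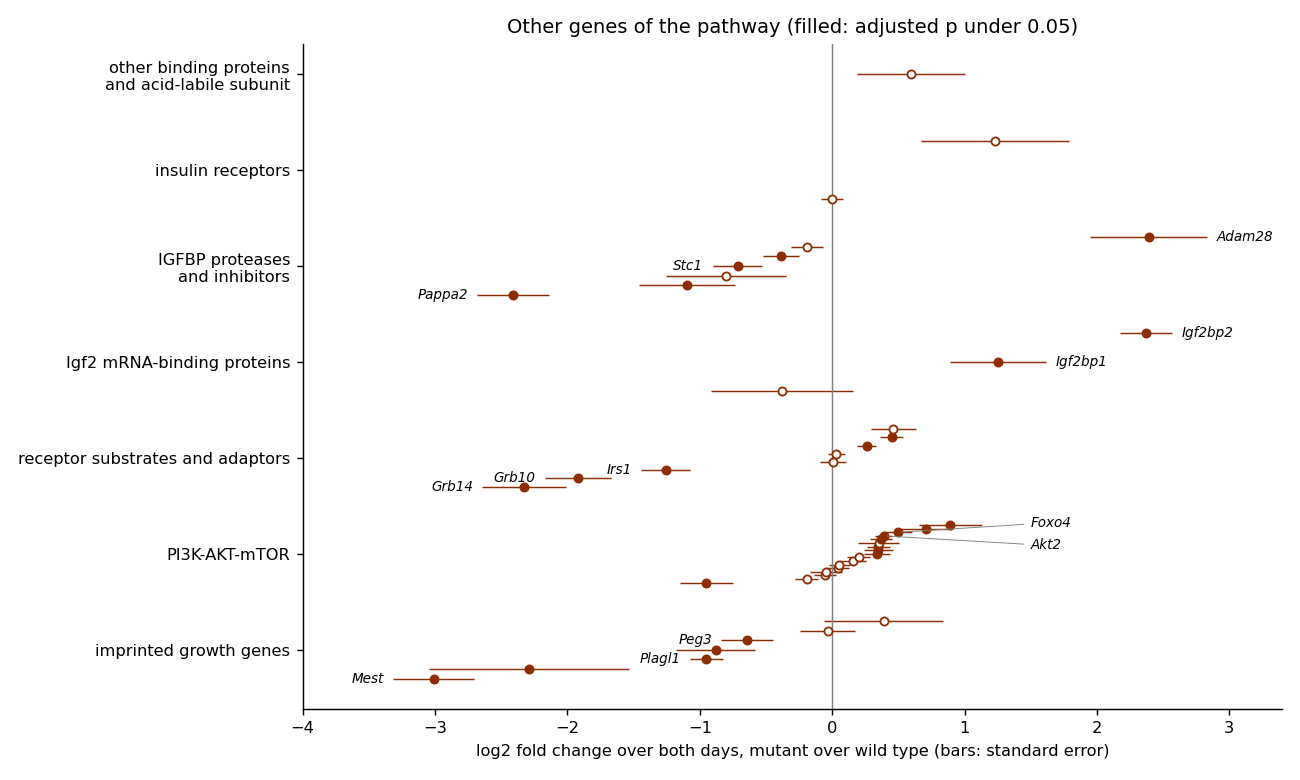
Log2 fold change of mutant over wild type over both days for 45 other genes of the pathway in 7 groups, with bars of 1 standard error, filled symbols for an adjusted p under 0.05 and names for 13 genes given with values. The 7 imprinted growth genes hold 5 filled symbols, all left of 0, 1 of them for Dlk1, a gene near the floor. In the PI3K-AKT-mTOR group 8 of the 9 filled symbols lie right of 0.

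Placing the library with the wild type tag in the wild type group ended the calls of all 4 binding proteins, with adjusted p = 0.122 for Igfbp5, 0.11 for Igfbp7, 0.266 for Igfbp4 and 0.343 for Igfbp3 over both days. In that placing edgeR called 0 of all 20216 genes over both days, with 5448 at an unadjusted p under 0.05, among them 2 of the 10 genes and 10 of the wider pathway. Without that library all 4 were called, with adjusted p = 0.000138 for Igfbp5, 0.00206 for Igfbp7, 0.00334 for Igfbp4 and 0.0345 for Igfbp3.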

How the data were processed

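Expected counts and TPM per gene were deposited by the authors for each of the 10 libraries, unnormalized for the expected counts and scaled by gene length to a fixed total for TPM, per the file headers, whose columns are those of RSEM. FastQC, STAR 2.7.8a and RSEM 1.3.0 appear without roles in the submitters' processing notes, as does build GRCm39. A stranded total RNA kit was used, per the labels' protocols; a strand setting for the counting step is not given in the sources used, so reads of opposite-strand genes may not be separated. RSEM's expected counts share out reads that match several genes, and 30.9% of the nonzero values were not whole.

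Groups and replicate numbers came from the titles; the descriptions number the wild type 14 dpa libraries in the opposite order. Between replicates, chi-square per degree of freedom ran from 116 to 226, and none were merged. Identifiers were named from GENCODE M21 on GRCm38 and then the authors' table, and 3283 had no name.

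Rounded expected counts of all 10 libraries entered 1 edgeR 4.0.16 quasi-likelihood fit (R 4.3.3; TMM factors, robust dispersion, filterByExpr with minimum count 10 and minimum total 15, 20216 genes kept, all 10 family genes among them). P-values were Benjamini-Hochberg adjusted over all genes, with a threshold of 0.05, and every adjusted p with no other tool named is from this fit. CPM uses TMM-scaled library sizes, and fitted fold changes a prior count of 0.125. The common dispersion was 0.0767. The fit was tested on counts simulated with a dispersion of 0.05, below that of the data. It called 68 of 100 2-fold and 99 of 100 4-fold changes, with 13 false calls. A gene that did not pass may therefore still have changed. Alternatives were RLE factors, no filter, DESeq2 1.42.0, a replicate block, protein-coding genes alone, the tagged library as wild type, limma 3.58.1 on log2(TPM + 1) and log2(TPM + 0.1), each library left out, and a sex term from Xist, chosen after seeing the data.

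Named were all 10 family genes, in each of 7 pathway groups up to 3 called genes with the smallest p over both days, and for each family gene the 2 genes of the protein-coding table with the highest r among those with a mean of at least 1 CPM. The family, the pathway list and the marker lists were chosen with earlier results of these data known, and the hexamers after seeing the windows. Dlk1, H19, Igfals, Insr, Insrr and Polr2b were added after their values were seen. A gene that the rule names is not reported here. Coordinates are from GRCm38, not the build of the counts.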

Additional observations from a re-analysis of the deposited data

How the results depend on the processing

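Libraries pool 6 digits and each group has 2 or 3, so 1 library can decide a call. Depth limits the 10 genes less, since the lowest, Igfbp6, had at least 86 expected counts in every library. The calls of Igfbp5, Igfbp7 and Igfbp4 over both days held under every setting that left out 1 library, and the directions of the 4 fallen binding proteins over both days held under all alternatives run. The cause of the changes below was not tested.

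With the tagged library as wild type, calls numbered 0 in each genotype comparison of all genes, 0 for the 10 genes over both days, at 12 dpa and at 14 dpa, 0 for the wider pathway and 2 between days in mutants. In that setting Igf1 at 14 dpa stood at 0.0804, Igf2 at 14 dpa at 0.23, Igfbp3 at 14 dpa at 0.0425 and Igfbp6 over both days at 0.15.

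Between days in mutants, where 7 genes were called, the count was 45 with no filter, 1483 in DESeq2, 26 with protein-coding genes, 313 and 337 in limma on TPM with pseudocounts 1 and 0.1, and 18 with the sex term. Between days in wild type, where 0 were called, DESeq2 gave 52, limma 3 and 1, and the sex term 2. For the genotype difference between days, where 0 were called, DESeq2 gave 48, no filter 1 and limma with pseudocount 1 gave 1. For the 10 genes, limma with pseudocount 1 called 2 over both days and DESeq2 called 4 at 12 dpa. At 14 dpa RLE factors called 2 of the 10, no filter 2, DESeq2 3 and protein-coding genes 3. Among all genes DESeq2 called 4875 at 12 dpa and 7749 at 14 dpa, beside 3339 and 6728 in the main fit. In limma on TPM, Igf2r stood at 0.11 and 0.12 over both days, 0.16 and 0.17 at 12 dpa and 0.0705 and 0.0792 at 14 dpa, and Igfbp6 over both days at 0.0746 and 0.10. In CPM instead of TPM, the log2 ratio of summed binding proteins was -1.18 against -0.52, and the difference in the Igfbp5 share was -21.7 against -12.0 percentage points.

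Leaving out 1 library at a time, calls among all genes ran from 6769 to 8797 over both days, 769 to 3947 at 12 dpa (lowest without wild type 12 dpa replicate 2), 2548 to 6517 at 14 dpa (lowest without wild type 14 dpa replicate 1), 0 to 3 for the genotype difference between days, 1 to 24 between days in mutants and 0 to 4 in wild type. Of the 10 genes 3 to 5 were called over both days, 0 to 4 at 12 dpa and 0 to 3 at 14 dpa, and of the wider pathway 17 to 25. Igf2 ran from -0.11 to 0.32 over both days, -0.0131 to 0.84 at 12 dpa and -0.53 to 0.10 at 14 dpa, Igf1r at 12 dpa from -0.0173 to 0.22 and Igfbp6 over both days from -0.37 to 0.0566.

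The replicate block was fitted although same-numbered libraries did not deviate together (r -0.197 to 0.176 over all pairs of groups compared). It gave 1927 genes at 12 dpa, beside 3339 without it, and 1 between days in mutants. With the block Igfbp3 over both days did not pass (adjusted p = 0.0503), Igf1 did (0.037), and Peg3 did not (0.0964).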

Other observations

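Xist, the transcript of the inactive X chromosome, was at 56783 to 133462 expected counts in 1 library of each group and at 11 to 46 in 5 others, while wild type 14 dpa replicate 1 had 1292. With a sex term in the fit, chosen after seeing the data, the same number of the 10 genes, 4, was called over both days.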
